A study of Homo sapiens with 6 samples.

Results

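HT-29 is a long-established cell line from a human adenocarcinoma of the colon, and its unheated control xenograft was described from the 2 arrays titled pooled control xenograft, of 6 arrays in the series. HT-29 cells had been grown in high-glucose medium and 0.1 ml of suspension was injected into both femoral regions of Balb/c (nu/nu) mice 6 to 8 weeks old, a strain without a thymus that keeps B cells, natural killer cells and phagocytes. RNA came from the tumour area of frozen sections, was pooled, and was hybridised to both arrays as technical replicates, so the 2 values of a gene are repeat measurements of 1 pool and their spread holds no difference between animals. The labels do not say how many tumours entered the pool or whether the control animals were handled like the heated ones. The control arrays carry the same treatment text as the heated ones, with treatment at day 18. The level of each of 19775 genes is the mean log2 value of both arrays for the probe set where that mean was highest. A gene was called detected where that mean was 5 or more, which held for 7046 genes, or 35.6% of all genes. No other pool was compared, and no test was possible or made.

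HT-29 stems from the epithelium that lines the large bowel, a tissue renewed from stem cells driven by WNT signals and sorted into absorptive colonocytes, mucus-secreting goblet cells and rarer endocrine and tuft cells. HT-29 is known for taking on absorptive or goblet traits under special culture conditions. A xenograft also holds mouse stroma, vessels and blood. The array carries human probes, so mouse RNA is measured only where it matches them, and few host cells and unread mouse RNA cannot be told apart.

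The arrays agreed closely, with a median absolute difference of 0.048 over the detected genes and a largest difference of 0.659. In 204 genes the arrays lay on either side of 5. The genes nearest to the limit were TULP4 at 5.004, IRS2 at 5.0025 and GRAMD4 at 5.0005 just inside it, and ABL2 at 4.9995, EXOC2 at 4.9995 and PRRT3-AS1 at 4.999 just outside. The lowest value of the table, 2.374, was shared by both arrays in 3835 genes (19.4%), and such genes have no order among themselves. Probe sets differ in how strongly they bind and where along the transcript they lie, so a rank orders signals and not amounts of RNA. Taking the highest of several probe sets raises the chance of a call, and 22.9% of genes with 1 probe set were detected against 59.3% of those with 4 or more. With the median of a gene's probe sets in place of the highest, 4479 genes were detected, and without probe sets whose probes can match other transcripts or several forms of a gene (_x, _s or _a in their names) 4660, with 2985 genes then left without a probe set. Of 4923 detected genes with several probe sets, 868 had all of them detected and 2597 had 1. How many were detected is given for some genes only, and the probe sets of the others may disagree as well. Of the 67 gene lists, 39 had a detected count that moved by over 1.5 times without the _x, _s and _a probe sets, 24 with the median, 6 with detection at 4 and 8 with detection at 6. The RNA signal fell towards the 5′ end of long-used control transcripts, with ACTB at 13.40 (3′), 11.18 (middle) and 7.79 (5′) and GAPDH at 13.54, 12.51 and 11.60. The part of this gradient in calls below 5 was not tested.

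**Figure D1:**
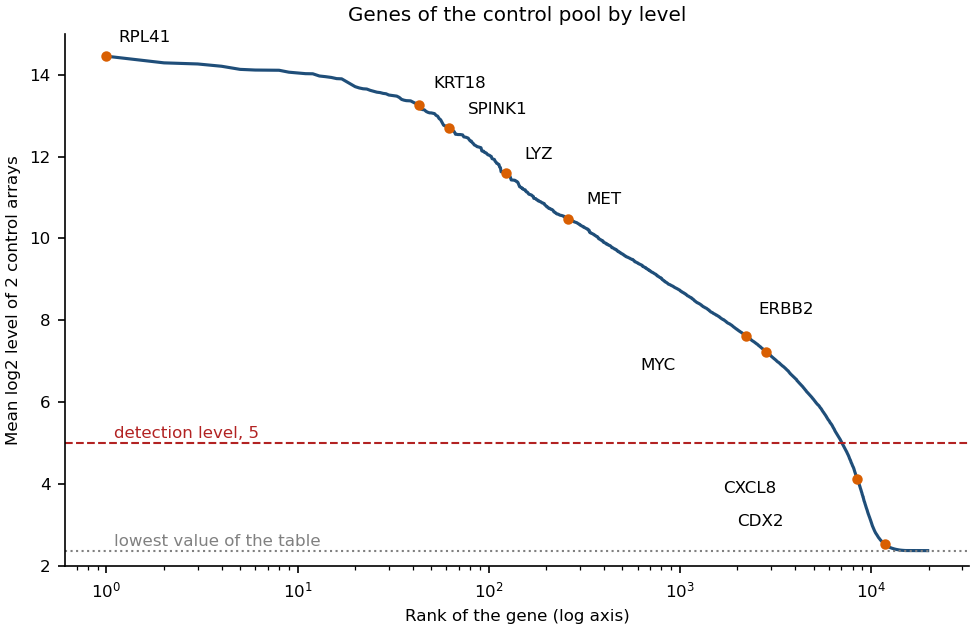
Mean log2 level of each of 19775 genes on the 2 control arrays (vertical axis) against its rank (horizontal log axis), with 9 genes marked. The curve crosses the detection level of 5 (dashed line) after 7046 genes and runs flat at the lowest value of the table (dotted line).

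The top of the ranking was held by the protein synthesis machinery. Of the 40 genes with the highest level, 29 encode ribosomal proteins and 4 are encoded by the mitochondrial genome (COX1, COX2, ND4 and ATP6, subunits of the respiratory chain and ATP synthase). RPL41, a very small ribosomal protein, stood first at 14.44 and 14.46 on the 2 arrays, followed by RPLP1 at 14.28 and 14.29. The other 7 were TMSB10 (14.28 and 14.25), a small actin-binding protein, the elongation factor EEF1A1 (14.13), TPT1 (14.06), the ubiquitin ligase HUWE1 (13.77), the noncoding nuclear RNA MALAT1 (13.66), GAPDH (13.54) and ACTB (13.396). HUWE1 stood there through a probe set of the _x_at kind, whose probes can match other transcripts, and 2 of 5 of its probe sets were detected. Over all 52 measured ribosomal protein genes 50 were detected with a median level of 13.37, and RPLP2 at 3.74 and RPL36A at 3.36 were not. These calls leave out probe sets that name several genes. With those counted, 153 genes not detected before were detected, and whether RPLP2 and RPL36A are among them is not given here. In all, 374 genes reached 10 and 103 reached 12. Genes at or above 12 after the first 40 included, as examples chosen after their values were seen, the annexin ANXA2 (13.301 and 13.31), its partner S100A10 (13.13 and 13.15), S100A6 (12.46 and 12.48), the tetraspanin TSPAN8 (12.25 and 12.27) and the lectin LGALS3 (12.01 and 12.02). Protein-coding genes were detected in 41.5% of cases (6853 of 16520) and long noncoding RNA genes in 4.74% (126 of 2657). The 35.6% of all genes set beside list counts below takes in every kind of gene and any number of probe sets. That share holds for the highest probe set, and with the median of a gene's probe sets 4479 of 19775 genes were detected.

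The pool showed the cytoskeleton and junctions of a simple epithelium. KRT18 (13.27 and 13.27), KRT8 (12.29 and 12.28), KRT19 (12.09 and 12.09) and KRT20 (12.14 and 12.14), the keratins of gut-type epithelium, lay at ranks 43, 84, 97 and 92 of all genes. KRT80 was at 6.76, while KRT7 (4.67, 0 of 4 probe sets detected) and KRT23 (2.37) were not detected. Of 16 measured keratins of stratified epithelium and hair, 1 was detected, KRT10 at 8.56 and 8.61. The basal keratins KRT5 and KRT14 were at 2.399 and 2.41. Junction and adhesion genes were detected in 25 of 27 cases (92.6%, against 35.6% of all genes). EPCAM, the epithelial adhesion molecule, was at 12.38 and 12.38, E-cadherin (CDH1) at 8.83 and 8.71, the desmosomal genes DSP and DSG2 at 9.76 and 9.71, and the tight junction genes TJP1, CLDN3 and OCLN at 9.39, 9.13 and 9.05. CLDN2, a pore-forming claudin, was at 8.03 and the epithelial splicing regulator ESRP1 at 7.73. The 2 that were not detected were CDH17, the intestinal liver-intestine cadherin, at 4.81 and 4.81, and the gastric CLDN18 at 3.81.

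Several transcription factors of the gut were detected, whereas the caudal homeobox factors were not. Of 26 measured intestinal transcription factors, 11 were detected (42.3%, near the 35.6% of all genes), or 7 without the _x, _s and _a probe sets. TCF7L2, the partner of beta-catenin, was at 10.58 and 10.61 with 7 of 7 probe sets detected. The epithelial ETS factors ELF3 and EHF were at 9.82 and 9.63, KLF5 and KLF4 at 9.67 and 7.46, GATA6 at 8.52 and 8.52, SOX9 at 8.42 and 8.48, HES1 at 8.43 and FOXA2 at 7.81. SPDEF, which drives goblet cell maturation, was at 6.46 and 6.298, and MYB at 6.21. CDX1 stood at the lowest value on both arrays and CDX2, the master regulator of intestinal identity, at 2.53 and 2.53 with 0 of 2 probe sets detected. ATOH1, the switch to the secretory lineage, was also at the lowest value. FOXA1 (4.55) and HNF4G (4.44) lay below 5, as did the foregut factors SOX2 (2.58) and PDX1 (2.46).

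**Figure D2:**
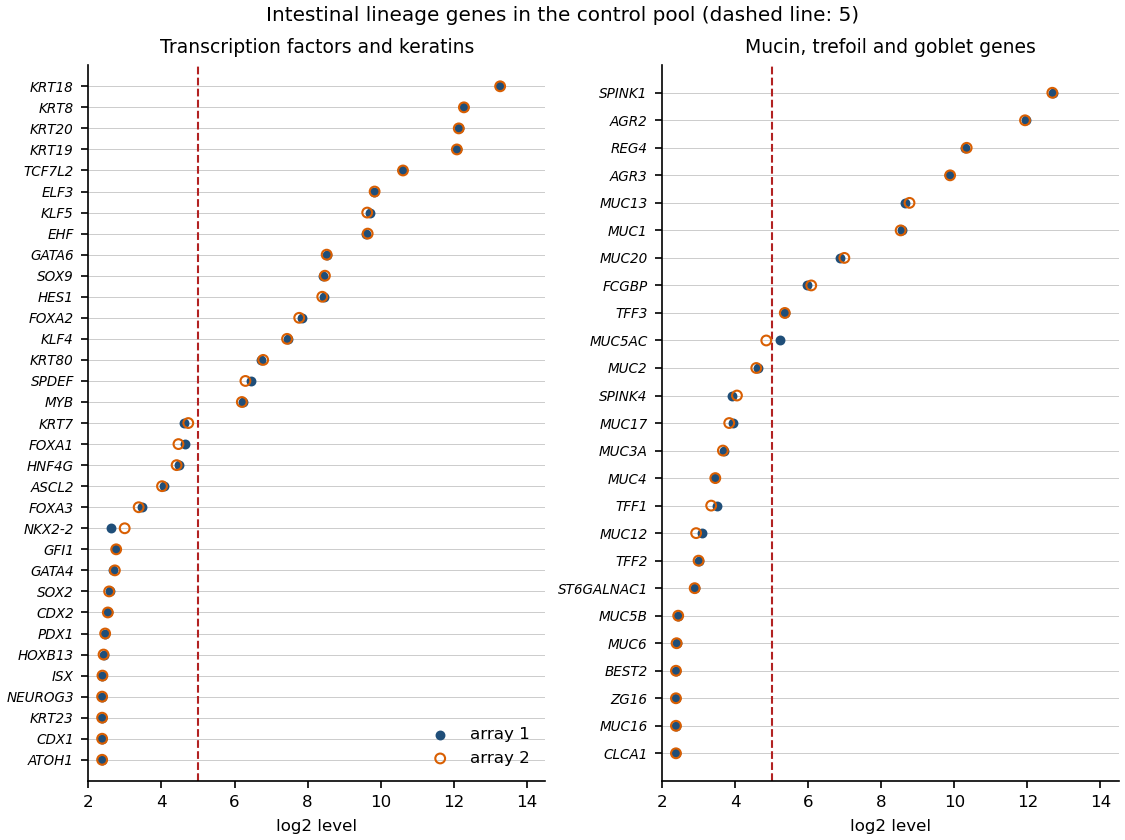
log2 level of intestinal transcription factors and simple keratins (left) and of mucin, trefoil and goblet cell genes (right), with array 1 as filled and array 2 as open points and the detection level of 5 as a dashed line. Keratins 18, 8, 20 and 19 lie above 12, CDX1 and CDX2 at or near the lowest value, and the 2 points of a gene mostly coincide.

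Secretory products were mixed, with several goblet-associated proteins high and the gel-forming mucins low. SPINK1, a secreted trypsin inhibitor, was at 12.69 and 12.68, the disulphide isomerase AGR2, needed for mucin folding, at 11.95 and 11.93, its relative AGR3 at 9.85 and 9.88 and the secreted lectin REG4 at 10.28 and 10.34. Of the mucins, the membrane-bound MUC13 (8.71), MUC1 (8.54, 2 of 3 probe sets detected) and MUC20 (6.92) were detected. MUC5AC, a gel-forming mucin of the stomach, had array values of 5.23 and 4.85 on either side of the limit, with 1 of 4 probe sets detected. MUC2, the gel-forming mucin of the colon, was at 4.62 and 4.57 and thus below 5. MUC5B, MUC6 and MUC16 were at 2.44, 2.39 and 2.37. Of the trefoil factors, which protect the mucosa, TFF3 was at 5.37 and 5.36 while TFF1 (3.42) and TFF2 (2.99) were not detected. CLCA1 and ZG16, secreted by mature goblet cells, stood at 2.37 and 2.37. In all, 10 of 25 measured genes of this group were detected (40%, near the 35.6% of all genes), or 6 without the _x, _s and _a probe sets.

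Genes of mature absorptive cells were mostly below the limit. Of 41 measured enterocyte and colonocyte genes, 9 were detected, a smaller share than the 35.6% of all genes. Apart from KRT20 these were the lectin LGALS4 (11.26 and 11.26), CEACAM6 (10.42 and 10.396), CEACAM5 (6.01 and 6.05, 1 of 2 probe sets detected), the carbonic anhydrase CA12 (9.24), villin (VIL1, 8.99 and 8.92), the brush border peptidase DPP4 (8.44), USH1C (7.78) and the sodium channel subunit SCNN1A (7.52). The disaccharidases SI and LCT, the alkaline phosphatase ALPI and the exchanger SLC26A3 lay between 2.37 and 2.41. CA1, CA2 and CA4 lay at 2.59, 2.47 and 2.71, AQP8 and MS4A12 at 2.37 and 2.37, and the fatty acid binding proteins FABP1 and FABP2 at 2.94 and 2.37. Of the surface antigens, GPA33 and the guanylate cyclase receptor GUCY2C stood at the lowest value on both arrays, while FOLR1, a folate receptor, was at 10.44 and 10.399 (1 of 2 probe sets detected) and the phagocytosis inhibitor CD47 at 10.08.

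Stem cell genes were detected in 9 of 16 cases (56.25%, against 35.6% of all genes). CD24 (11.51 and 11.54) and CD44 (10.53 and 10.51), adhesion molecules of crypt cells, were followed by PROM1 (8.03), the WNT feedback ubiquitin ligases RNF43 (7.84) and ZNRF3 (5.8985), AXIN2 (6.87, 1 of 4 probe sets detected) and the ephrin receptor EPHB3 (6.57). The defining crypt base genes were not detected, with LGR5 at 3.998 and 4.26, ASCL2 at 4.08 and 4.01, SMOC2 at 2.37 and OLFM4 at 2.37. Among 23 measured enteroendocrine, tuft and Paneth cell genes 2 were detected, lysozyme (LYZ, 11.62 and 11.57, rank 123) and the protease MMP7 (10.08 and 10.06), both also made by Paneth cells. The Paneth defensins DEFA5 and DEFA6 and the endocrine genes CHGA, CHGB, GCG and PYY lay between 2.37 and 2.39.

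Markers of other tissues were detected in 17 of 138 measured genes (12.3%, against 35.6% of all genes). Without the _x, _s and _a probe sets 5 of the 109 still measured were detected. Of the fibroblast and matrix genes 5 of 20 were detected, namely S100A4 (12.91 and 12.89), TAGLN (6.69 and 6.87), COL1A1 (6.62 and 6.68), VIM (6.31 and 6.72) and FN1 (5.23 and 5.21). S100A4, a calcium-binding protein linked to motility, also belongs to epithelial tumour cells, and in the others 1 probe set each was detected of 3, 5, 2 and 7. The fibroblast markers PDGFRB, FAP, POSTN and LUM lay between 2.37 and 2.39. Of 12 endothelial genes FLT1 was detected at 5.104 and 5.16, and PECAM1, VWF and CDH5 lay at 2.59, 2.38 and 2.37. Of 15 leukocyte genes only LYZ was detected, and PTPRC, the common leukocyte antigen, stood at 2.42. Of the red blood cell genes HBE1, embryonic haemoglobin epsilon, was at 6.16 and 5.92 with 1 of 2 probe sets detected, and HBB at 2.88. No adipocyte gene of 8, melanocyte or germ cell gene of 8, cancer-testis antigen of 14, or marker of stomach, pancreas, lung and prostate of 12 was detected. Human signal from fewer expressing cells and from less RNA per cell cannot be told apart in such bulk samples.

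Some single genes named for other organs stood well above 5. Of 14 hepatocyte genes 4 were detected (28.6%, against 35.6% of all genes). These were the protease inhibitor SERPINA1 (9.89 and 9.89, 2 of 4 probe sets), the plasma protein APOH (9.19 and 9.19, 1 of 2), APOC1 (5.802 and 5.88) and transthyretin (TTR, 5.65 and 5.66). Albumin (ALB) was at 2.3985 with 0 of 4 probe sets detected and the fibrinogen genes FGA, FGB and FGG at 2.38, 2.38 and 2.63. The neuronal tubulin TUBB3 was at 9.88 and 9.89 with 2 of 2 probe sets, while RBFOX3, MAP2 and SYN1 lay at 2.44, 2.41 and 2.38. MBP was at 6.28 with 1 of 9 probe sets detected. Of 18 skeletal muscle genes the troponins TNNT1 (7.18 and 7.09) and TNNT3 (5.44 and 5.44) and the myosin light chain MYL11 (5.02 and 5.08) were detected, and MYOD1, MYOG, CKM and MYH2 lay between 2.38 and 2.45.

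Promoters of detected genes held more CpG than those of undetected genes. For 13455 of 16520 measured protein-coding genes RefSeq gave the 250 bases before the start (GRCh38.p14). The median number of CpG dinucleotides was 22 in the promoters of detected and 14 in those of undetected genes, and 77.7% against 49.8% held 15 or more, with 61.9% over all promoters. The share was 33.4% among genes at the lowest value on both arrays, 77.7% from 5 to below 8 and 75% at 11 and above. The motif TATAAA, searched on the gene's strand 40 to 20 bases before the start, was in 1.57% of detected and 4.46% of undetected promoters (3.20% of all), with 7.03% at the lowest value, 1.04% from 5 to below 8 and 6.06% (8 of 132) at 11 and above. These shares are a description over genes, which are not independent replicates, and were not tested.

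The detected lineage genes had a median of 13 CpG in 55 promoters against 22 in 165 detected metabolic genes, 21 in 96 chaperone genes and 25 in 110 oncogene and growth control genes. Among undetected lineage genes the median was 5 in 75 promoters. The following 5 promoters show the range, chosen after the values were seen, with CpG and the TATAAA motif in capitals. RPL41 is the gene of first rank (16 CpG, chr12:56116383-56116632, plus strand), KRT20 a lineage gene at 12.14 with 2 CpG (chr17:40885243-40885492, minus strand), REG4 a lineage gene at 10.31 with 5 CpG and TATAAA (chr1:119811461-119811710, minus strand), TCF7L2 a factor at 10.596 with 21 CpG (chr10:112949997-112950246, plus strand), and KIT a receptor at the lowest value with 34 CpG (chr4:54657707-54657956, plus strand). Each runs 5′ to 3′ on the strand of the gene and ends at the base before the start.
RPL41: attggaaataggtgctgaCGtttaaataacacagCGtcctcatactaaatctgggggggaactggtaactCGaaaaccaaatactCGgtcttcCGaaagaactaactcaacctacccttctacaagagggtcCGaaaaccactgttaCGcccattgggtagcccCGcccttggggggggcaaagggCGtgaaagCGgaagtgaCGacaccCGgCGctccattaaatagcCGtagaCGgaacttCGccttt
KRT20: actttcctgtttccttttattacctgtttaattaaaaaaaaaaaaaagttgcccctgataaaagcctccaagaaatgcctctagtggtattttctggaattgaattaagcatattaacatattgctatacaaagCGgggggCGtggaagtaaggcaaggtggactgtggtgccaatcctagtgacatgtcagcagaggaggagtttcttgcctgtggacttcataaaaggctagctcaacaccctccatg
REG4: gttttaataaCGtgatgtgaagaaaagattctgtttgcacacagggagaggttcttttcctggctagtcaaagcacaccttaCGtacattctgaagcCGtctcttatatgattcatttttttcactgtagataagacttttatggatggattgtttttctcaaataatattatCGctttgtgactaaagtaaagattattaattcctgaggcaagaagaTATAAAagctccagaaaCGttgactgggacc
TCF7L2: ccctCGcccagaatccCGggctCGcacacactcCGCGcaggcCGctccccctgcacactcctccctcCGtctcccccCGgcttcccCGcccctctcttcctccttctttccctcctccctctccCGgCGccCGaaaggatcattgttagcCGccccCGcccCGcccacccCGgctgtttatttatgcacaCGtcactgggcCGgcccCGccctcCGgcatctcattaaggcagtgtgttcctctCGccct
KIT: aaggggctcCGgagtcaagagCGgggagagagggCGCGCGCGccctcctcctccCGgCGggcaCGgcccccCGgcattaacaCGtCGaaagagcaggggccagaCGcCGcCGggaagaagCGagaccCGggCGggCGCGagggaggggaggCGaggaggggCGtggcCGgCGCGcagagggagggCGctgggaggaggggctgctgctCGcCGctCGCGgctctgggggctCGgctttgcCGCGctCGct

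**Figure D3:**
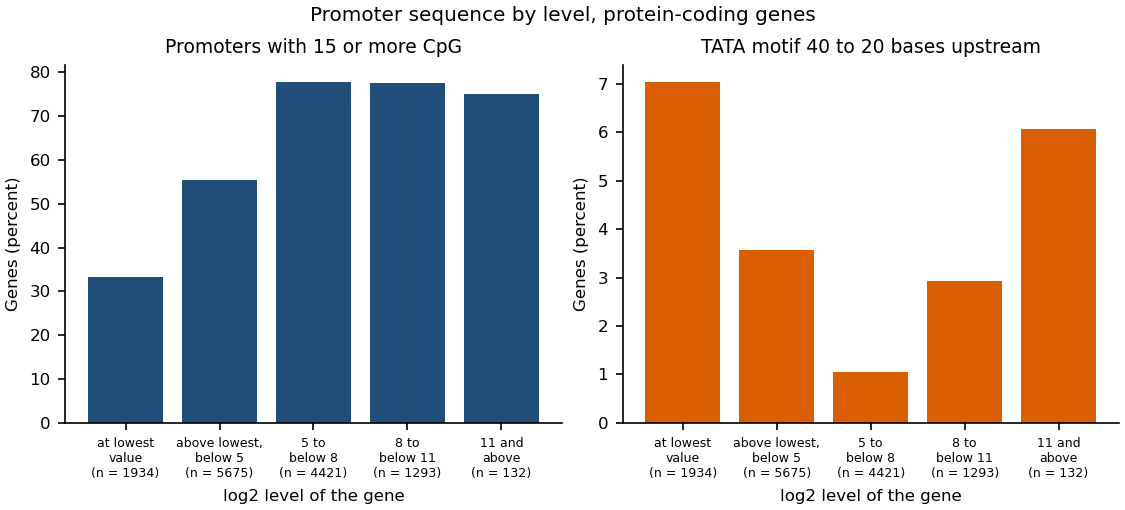
Share of protein-coding genes (percent, vertical axes from 0) whose promoter holds 15 or more CpG (left) or the TATA motif (right), by log2 level of the gene on the control arrays, with the number of genes under each bar. The CpG share rises from 33.4% at the lowest value to 77.7% from 5 to below 8, and the TATA share is lowest in that class, at 1.04%.

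Of 282 measured receptor and ligand genes 89 were detected (31.6%). With the median of a gene's probe sets 45 were detected, a setting in which the count over all genes fell from 7046 to 4479. Receptor tyrosine kinases were detected in 19 of 48 cases (39.6%, near the 35.6% of all genes), or 5 with the median of a gene's probe sets. MET, the receptor of hepatocyte growth factor, was at 10.46 and 10.51 with 1 of 4 probe sets detected, and ERBB3, the kinase-impaired partner of the EGFR family, at 10.37 and 10.33 with 2 of 5. ERBB2 was at 7.64 and 7.59 (1 of 3), EGFR at 6.41 and 6.36 (3 of 9), and ERBB4 at 2.43 (0 of 4). All 4 fibroblast growth factor receptors were detected, FGFR4 at 7.94, FGFR3 at 7.49, FGFR1 at 7.37 and FGFR2 at 6.97, each on 1 or 2 of its probe sets. IGF1R was at 7.43 and 7.595, INSR at 5.897 and 5.95, the MET relative MST1R at 6.44 and 6.57, and the ephrin receptors EPHB4 and EPHA2 at 6.7955 and 6.09. Several receptors of mesenchymal, blood and neural cells were not detected, with KIT, FLT3, PDGFRB, KDR and CSF1R at the lowest value and PDGFRA, RET, ALK, NTRK2 and NTRK3 between 2.39 and 2.61. AXL was at 3.26. The probe sets of the collagen receptor DDR1, which also name a microRNA gene, lay at 7.77 to 8.28 and are outside these counts.

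Other growth factor ligands were detected in 8 of 28 cases (28.6%, against 35.6% of all genes), or 4 with the median of a gene's probe sets. Of 9 measured EGF family ligands TGFA was detected at 7.32 and 7.303 (1 of 3 probe sets), EREG lay at 4.69 and 4.85, and HBEGF, NRG1, BTC and EGF at 3.44, 3.32, 2.42 and 2.38. HGF, the ligand of MET, was at 2.38 with 0 of 5 probe sets detected, IGF1 at 2.77, and the probe sets shared by IGF2 and its readthrough gene reached 2.44 at most. Of the 10 fibroblast growth factors measured none reached 5, with FGF9 at 2.71 and FGF19 at 2.38. The angiogenic ligands VEGFA (10.33 and 10.32) and PGF (9.499 and 9.48) were detected, as were KITLG (8.37 and 8.33), GDF15 (7.16 and 7.19), PDGFA (6.25), PDGFC (6.08), PDGFB (5.52) and VEGFB (5.196). For VEGFA, PGF, KITLG and PDGFB the receptors KDR, KIT and PDGFRB were below 5 in the same pool and FLT1 stood at 5.13. Receptor RNA of mouse host cells is measured only where it matches the human probes.

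**Figure D4:**
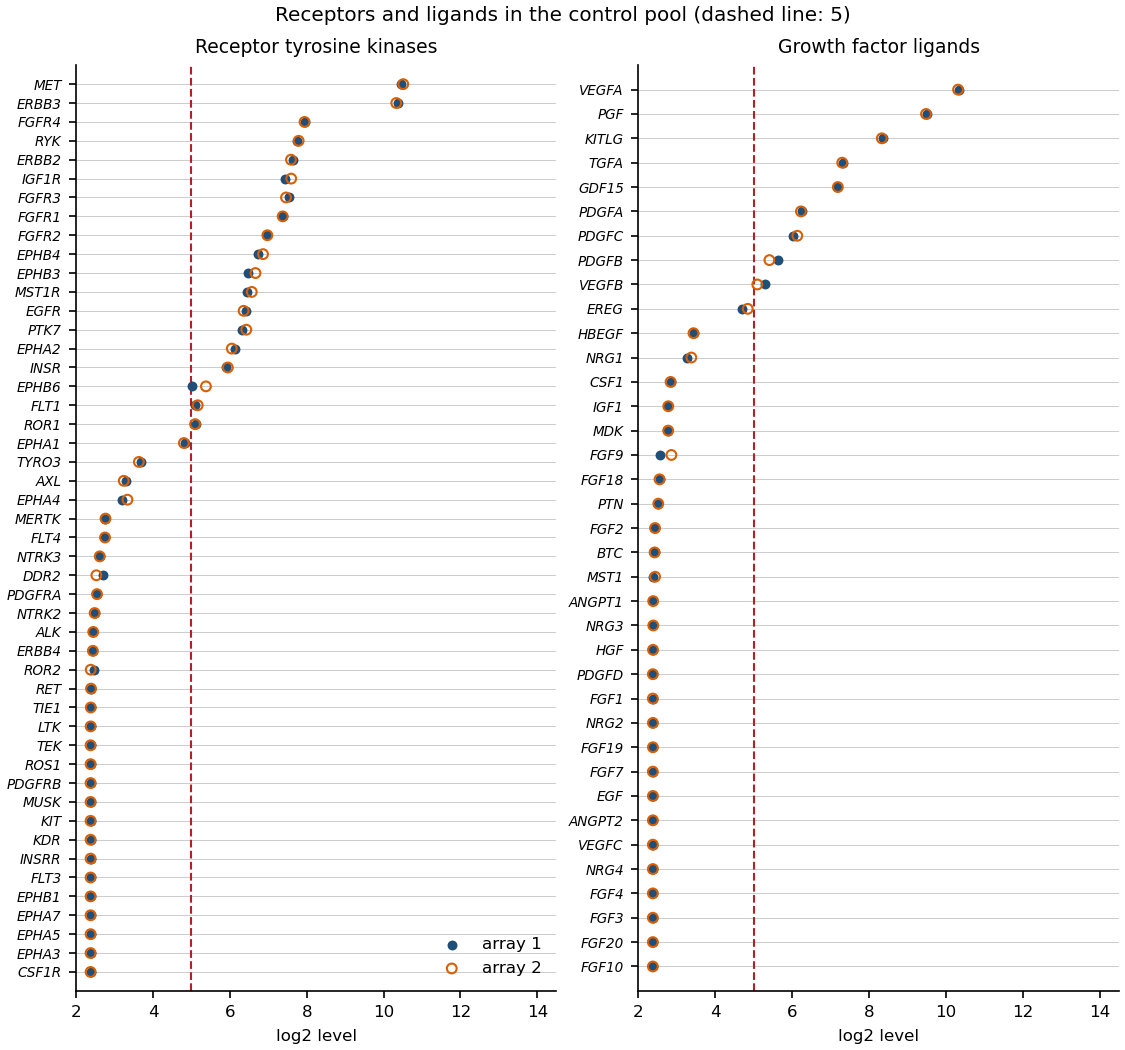
log2 level of receptor tyrosine kinases (left) and of growth factor ligands (right) on array 1 (filled) and array 2 (open), with the detection level of 5 as a dashed line. MET, ERBB3, VEGFA and PGF lie between 9 and 11, and most genes in each panel lie near the lowest value.

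In the WNT system, receptors and 2 ligands were detected among many undetected members, 9 of 44 in all (20.5%, against 35.6% of all genes). FZD5 (7.38 and 7.32), FZD2 (5.79) and FZD6 (5.25) bind WNT ligands, LRP6 (6.16) is their co-receptor and LGR4 (7.18 and 7.202) binds R-spondins. WNT10A was at 6.45 and 6.397, WNT11 at 5.91 and 5.88, and the WNT carrier WLS at 6.73. DKK1, a secreted antagonist, was at 7.59 and 7.53, while SFRP1, SFRP2, SFRP4, SFRP5 and WIF1 lay between 2.37 and 2.59. The R-spondins RSPO1 to RSPO4 lay between 2.37 and 2.39. Of the NOTCH system NOTCH2 (7.58), NOTCH1 (5.89), JAG1 (7.998 and 8.08) and JAG2 (6.02) were detected together with the target HES1, and NOTCH3, NOTCH4, DLL1 and DLL4 were not.

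Receptors, ligands and SMAD mediators of the TGF-beta family were detected in 13 of 24 cases (54.2%, against 35.6% of all genes). With the median of a gene's probe sets 8 were detected. The ligands BMP4 (8.09 and 8.09) and BMP2 (6.81 and 6.83), the receptors ACVR1B (8.33), TGFBR2 (7.14 and 7.13) and TGFBR1 (5.56), and SMAD5 (8.73), SMAD3 (7.79) and SMAD2 (6.91) were at or above 5. SMAD4, the shared mediator and a tumour suppressor, was at 4.69 and 4.75 with 0 of 5 probe sets detected, and TGFB1, TGFB2 and TGFB3 lay at 3.89, 2.89 and 2.38. Nuclear receptors were detected in 13 of 39 cases, near the share of all genes. They included PPARG (8.203 and 8.14), PPARD (7.45), ESRRA (7.48), NR1H3 (7.22), RXRA (6.77) and the vitamin D receptor VDR (5.05 and 5.06, 1 of 4 probe sets). The steroid receptors ESR1 (2.54), ESR2 (2.38), PGR (2.37), NR3C1 (2.598, 0 of 5 probe sets) and NR3C2 (2.43) were not detected.

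Of 49 cytokine, chemokine and death receptors 15 were detected (30.6%, near the 35.6% of all genes), or 9 with the median of a gene's probe sets. The TRAIL receptors TNFRSF10B (9.56 and 9.56) and TNFRSF10A (6.29 and 6.18) can trigger cell death, and FAS was at 3.87 and 3.87 with 0 of 5 probe sets detected. TNFRSF21 was at 9.16 and TNFRSF12A at 7.89. IL6ST, the shared chain of interleukin 6 type receptors, was at 9.04 and 9.03, and IL6R at 3.97. The interferon gamma receptor chains IFNGR1 and IFNGR2 were at 8.83 and 7.47, IFNAR2 at 5.34 and IFNAR1 at 2.85. Interleukin receptors IL13RA1 (8.63), IL4R (7.02) and IL22RA1 (6.13) and the chemokine receptor CXCR4 (8.62 and 8.58) were detected, and the 6 measured Toll-like receptors lay between 2.37 and 3.24. Of 30 hormone and peptide receptors 6 were detected, or 2 with detection at 6, with GPRC5A at 9.42 and 9.34, VIPR1 at 5.29 and the neurotensin receptor NTSR1 at 5.18.

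Over all 15 metabolic lists, from glycolysis to drug enzymes, 191 of 288 measured genes were detected (66.3%, against 35.6% of all genes). Without the _x, _s and _a probe sets 120 of the 222 still measured were detected. Glycolytic enzymes were detected in 20 of 28 cases, with LDHA at 12.74 and 12.76, ALDOA at 12.46 and 12.47, LDHB at 12.104 and 12.097, PGK1 at 11.52, TPI1 at 11.42 and ENO1 at 10.83. The first step was represented by HK1 (7.88 and 7.86) and HK2 (7.66 and 7.65), not by HK3 (2.37), and the regulatory kinase PDK1 by 8.14 and 8.198 where PDK2, PDK3 and PDK4 lay below 5. PKM was at 7.04 and 7.02 with 1 of 2 probe sets and the liver and testis forms PKLR and LDHC at 2.47 and 2.38. The glucose transporter SLC2A1 was at 7.77 and 7.76, and SLC2A2 to SLC2A5 lay between 2.37 and 2.76. Of 8 measured glucose and lactate transporters 2 were detected (25%, against 35.6% of all genes), or 0 without the _x, _s and _a probe sets. The enzymes that make glucose anew were sparse, with FBP1 at 5.83 and 6.003 and PCK2 at 6.05 and 6.06 detected, and PCK1 (2.85) and G6PC1 (2.37) not detected. PYGB, the brain form of glycogen phosphorylase, was at 9.96 and 10.03.

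Citric acid cycle genes reached 5 in 19 of 22 cases (86.4%, against 35.6% of all genes). MDH2 was at 10.297 and 10.26 and IDH2 at 9.29 and 9.22, and OGDH (4.25), ACO1 (4.24) and pyruvate carboxylase (PC, 3.96) lay below. Respiratory chain subunits reached 5 in 21 of 24 cases (87.5%). The 3 below 5 were the tissue forms COX4I2 (3.03), COX6A2 (2.37) and COX7A1 (2.38) of lung and muscle. Fatty acid oxidation and ketone body genes were detected in 10 of 14 cases, among them ECHS1 (10.11), ACADVL (8.81) and CPT1A (6.88, 1 of 4 probe sets). The ketone body enzyme OXCT1 stood at 2.38 and the coactivator PPARGC1A at 2.75.

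Genes for building blocks were detected in most lists. Of 28 pentose phosphate and nucleotide genes 23 were detected (82.1%, against 35.6% of all genes). TKT was at 10.69 and 10.69, TALDO1 at 10.58 and 10.601, PAICS at 9.85 and IMPDH2 at 9.52. TYMS, the target of fluorouracil, was at 8.72 and 8.79, and the enzymes that break down or activate that drug, DPYD and TYMP, were at 2.48 (0 of 3 probe sets) and 2.84 (0 of 2). Amino acid supply included the transporters SLC38A1 (10.2015), SLC38A2 (9.36), SLC7A5 (6.89) and SLC1A5 (5.78), the polyamine enzyme ODC1 (9.97 and 9.99) and the urea cycle enzymes ASS1 (8.03) and ASL (7.89). In serine synthesis PSPH (8.204 and 8.16) and PSAT1 (6.795 and 7.103) were detected and PHGDH, the first enzyme, was at 4.43 and 4.72. The mitochondrial folate enzymes SHMT2 (9.74 and 9.68) and MTHFD2 (8.62 and 8.58) were detected and the cytosolic SHMT1 was at 2.38. In lipid synthesis SCD was at 10.54 and 10.55, ACLY at 9.41 and 9.399 and FASN at 5.596 and 5.65 (1 of 2 probe sets). The cholesterol pathway was detected in 15 of 20 cases, with SQLE at 9.54 and HMGCS1 at 9.49, and MVK (3.86) and MVD (2.42) below 5.

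Of 33 drug and xenobiotic genes 11 were detected, near the share of all genes, or 17 with detection at 4. CYP3A5 was at 11.41 and 11.395 (3 of 4 probe sets), with the related CYP3A4 at 4.46, GSTP1 at 9.97 and 9.97, NQO1 at 8.63 and 8.66 and AKR1B10 at 8.03 and 8.02. CYP1A1, CYP2E1, CES1 and GSTM1 lay between 2.37 and 2.43. The efflux pumps ABCC3 (10.23 and 10.26, 5 of 5 probe sets) and ABCC1 (8.19 and 8.15) were detected, and ABCB1 and ABCG2, the classical multidrug transporters, were at 2.53 and 2.38. Redox and iron genes were detected in 21 of 27 cases (77.8%). The gut glutathione peroxidase GPX2 was at 9.997 and 10.07, thioredoxin (TXN) at 12.102 and 12.09, the ferritin light chain FTL at 12.24 and 12.24 and the transferrin receptor TFRC at 9.83, while HMOX1 was at 2.97. Metallothioneins, which bind zinc and copper, were detected in 6 of 9 cases, and in none without the _x, _s and _a probe sets. MT1E was at 8.86 and 8.95, MT2A at 8.21 and 8.22 and MT1X at 8.002 and 8.02. MT1M, MT3 and MT4 lay at 2.38, 2.39 and 2.37. The members of this family are nearly identical in sequence, so their probe sets may share signal.

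**Figure D5:**
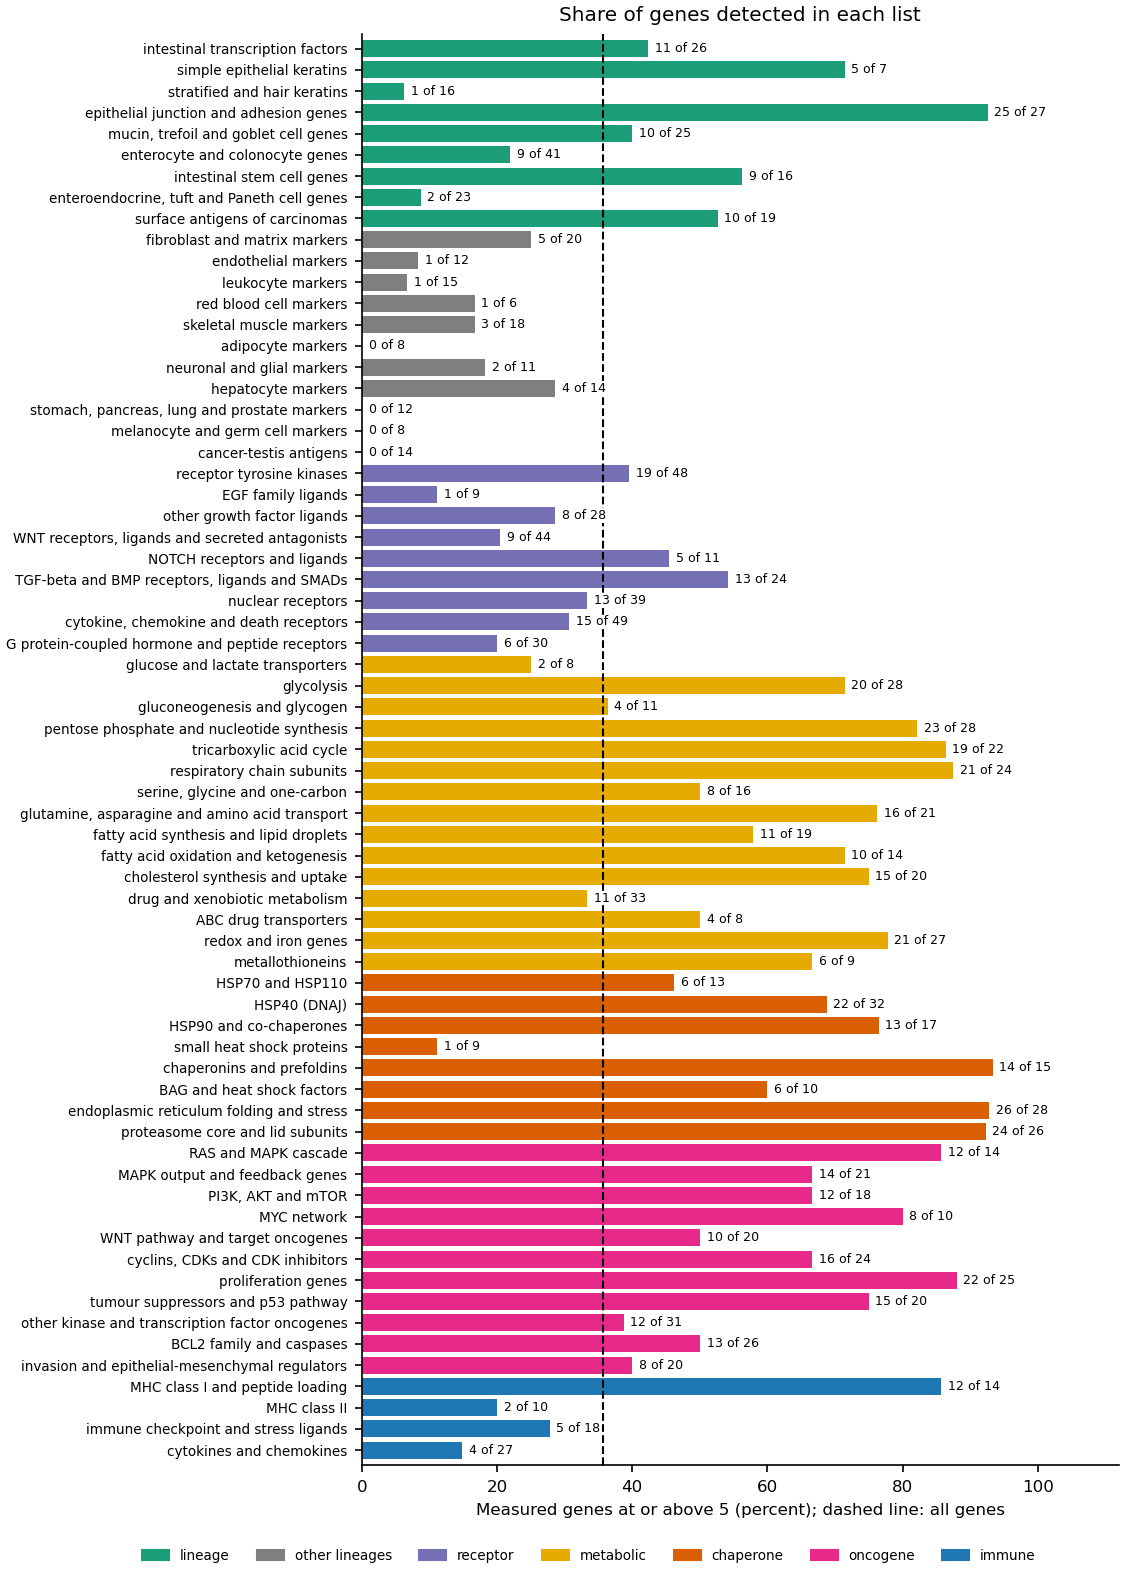
Percent of measured genes detected in each of 67 lists (bars from 0, coloured by theme, with counts), against 35.6% of all genes (dashed line). Chaperonin, proteasome, junction and endoplasmic reticulum lists lie above 90%, and 4 lists of other tissues have no detected gene.

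Of 148 measured chaperone and proteasome genes, constitutive and inducible, 110 were detected in the unheated tumour (74.3%, against 35.6% of all genes). Without the _x, _s and _a probe sets 67 of the 117 still measured were detected. HSP90AA1 (12.11 and 12.15), the stress-inducible cytosolic HSP90, and HSP90AB1 (11.12 and 11.12), the constitutive one, were detected, with the co-chaperones PTGES3 at 10.59, STUB1 at 10.61 and STIP1 at 7.95. In the HSP70 and HSP110 family 6 of 13 genes with probe sets of their own were detected (46.2%), or 10 with shared probe sets counted. The latter count takes in HSPA1L only through a probe set shared with HSPA1A and HSPA1B, at 10.22. HSPA5, of the endoplasmic reticulum, was at 10.61 and 10.65, the mitochondrial HSPA9 at 8.99 and 8.99 and HSPA4 at 8.31 and 8.24. The constitutive HSPA8 has only probe sets that also name small nucleolar RNA genes, at 7.85 to 11.14, and the inducible pair HSPA1A and HSPA1B share probe sets, at 8.72 to 10.22. HSPA6, which is strictly inducible, was at 4.88 and 4.82, and the testis-linked HSPA1L and HSPA2 were at 2.58 and 3.05. Of 9 small heat shock proteins, read on probe sets of their own, HSPB1 was detected at 9.09 and 9.08 and CRYAB was at 4.0955. The remaining 7 lay between 2.37 and 2.72, the level of HSPB8. With shared probe sets counted 2 of the 9 were detected, and without the _x, _s and _a probe sets 0.

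The J-domain partners of HSP70 were detected in 22 of 32 cases (68.75%, against 35.6% of all genes). They were led by DNAJC2 (8.57), DNAJC3 (8.38) and DNAJA1 (8.36 and 8.395), with DNAJB1 at 6.66 and 6.73. DNAJA4, DNAJB4 and DNAJB5 lay at 2.48, 2.6005 and 2.37. The chaperonins and prefoldins, which fold actin, tubulin and mitochondrial proteins, were detected in 14 of 15 cases, with HSPD1 at 12.22 and 12.22, the 7 widespread CCT subunits measured between 9.24 (CCT4) and 9.82 (CCT2) and the testis form CCT6B at 2.83. Endoplasmic reticulum folding and stress genes reached 5 in 26 of 28 cases, with ATF4 at 10.96 and 10.93, P4HB at 10.55, CANX at 10.44, XBP1 at 8.43 and DDIT3 at 7.22 and 7.22. ERN2, the stress sensor of mucosal epithelium, was at 8.38 and 8.41 and its widespread relative ERN1 at 5.22 and 5.23. The HSF1 regulator itself lay at 4.898 and 4.78, while BAG6 and BAG3 were at 9.14 and 7.93. Of the proteasome 24 of 26 subunits were detected, PSMB8 (6.29) and PSMB10 (6.99) of the immunoproteasome among them, and PSMB9 was at 2.504 and 2.504.

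Among oncogenes and growth control genes 134 of 220 were detected (60.9%, against 35.6% of all genes). Where a gene was given the median of its probe sets 73 were detected, against 4479 of all 19775 genes. MYC was at 7.299 and 7.17 on its single probe set, its partner MAX at 7.22 and the antagonist MXI1 at 9.07 and 9.07, while MYCN (0 of 10 probe sets) and MYCL were at 2.75 and 2.67. In the MAPK cascade 12 of 14 measured genes were detected, or 7 with detection at 6, among them HRAS at 6.96 and 7.06, ARAF at 5.26 and 5.22, MAP2K1 at 6.23 and 6.15 and MAP2K2 at 7.51 and 7.58. The remaining 6 listed genes of the cascade were not analysed here. Of its output and feedback genes 14 of 21 were detected, with JUN at 8.197 and 8.198, DUSP6 at 6.73 and 6.65, SPRED1 at 6.84, DUSP4 at 5.05 and 5.05, SPRY2 at 5.35 and 5.26 and PHLDA1 at 5.98. SPRY4 (3.82), ETV4 (3.73), ETV5 (3.83) and FOSL1 (3.33), also outputs of the pathway, lay below 5.

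The WNT target and pathway list had 10 of 20 genes detected (50%, against 35.6% of all genes). CTNNB1, which encodes beta-catenin, was at 8.11 and 8.06, CCND1 at 8.15 and 8.16, and APC at 4.49 and 4.63 (0 of 5 probe sets). LEF1 (2.397), TCF7L1 (2.37), NKD1 (2.501) and SP5 (2.47) were not detected. In PI3K signalling RHEB (9.87), PIK3R1 (7.62), AKT1 (7.12) and AKT2 (7.05) were detected, and the leukocyte kinases PIK3CD and PIK3CG lay at 2.82 and 2.38. The tyrosine kinases YES1 (9.17 and 9.22), SRC (6.46 and 6.34, 1 of 7 probe sets) and FYN (6.41) were detected and the leukocyte kinase LCK was at 2.45.

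Cell division genes were detected in 22 of 25 cases (88%, against 35.6% of all genes). PCNA was at 9.01 and 9.14, TOP2A at 9.07 and 9.07, MKI67 at 8.28 and 8.31 (4 of 4 probe sets), UBE2C at 8.26 and CCNB1 at 8.01. PLK1, a mitotic kinase, was at 2.54 and 2.54 on its single probe set, and AURKB and CENPA lay at 4.63 and 4.68. Of the cyclins and their kinases CDK4 was at 8.93 and 8.896, CDK6 at 7.67, CCND3 at 6.07 and CCND2 at 2.59 (0 of 4 probe sets). The inhibitors CDKN1A (7.63 and 7.58), CDKN1B (8.22 and 8.23) and CDKN2A (6.44 and 6.44, 1 of 3 probe sets) were detected and CDKN2B was at 2.8015. The p53 antagonists MDM4 (8.56 and 8.57, 2 of 6 probe sets) and MDM2 (6.87 and 6.85, 1 of 10) were detected. MGMT, a DNA repair enzyme often silenced in colorectal cancer, was at 7.67 and 7.58.

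Of 26 BCL2 family and caspase genes 13 were detected (50%, against 35.6% of all genes). With the median of a gene's probe sets 5 were detected, and without the _x, _s and _a probe sets 6. The survival genes MCL1 (9.72 and 9.78, 1 of 6 probe sets), XIAP (8.81 and 8.77), BIRC2 (8.33) and BCL2L1 (6.69 and 6.903) were at or above 5, and BCL2 and BCL2A1 lay at 2.798 (0 of 4) and 2.37. BID (5.699), BAX (5.19 and 5.101) and CASP8 (6.34) on the death side were detected, the arrays of BIK (4.97 and 5.22) lay on either side of 5, and BAK1 was at 3.29. Of 20 measured genes of invasion and epithelial-mesenchymal transition 8 were detected (40%, near the 35.6% of all genes), or 4 with the median of a gene's probe sets. They include the mesenchymal genes S100A4, VIM and FN1 described above and the proteases MMP7 and MMP14 (6.19 and 6.13, 1 of 4 probe sets). The regulators of epithelial-mesenchymal transition SNAI1, SNAI2, TWIST1, TWIST2, ZEB1 and ZEB2 lay between 2.37 and 2.84, and N-cadherin (CDH2) at 2.39. S100P (10.71 and 10.704), PLAUR (7.59 and 7.59) and MACC1 (5.98 and 5.97), linked to invasion in colorectal cancer, were detected, and PLAU, the ligand of PLAUR, was at 2.37.

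Antigen presentation genes of class I were mostly detected (12 of 14) and those of class II mostly not. Over all 69 immune genes 23 were detected (33.3%, near the 35.6% of all genes). Without the _x, _s and _a probe sets, 12 of the 56 still measured were detected. B2M, the class I light chain, was at 12.27 and 12.28, HLA-B at 10.22 and 10.28, HLA-C at 10.41 and 10.39 and TAPBP at 8.13, with the peptide transporter chain TAP1 at 5.46 and 5.46. The other chain, TAP2, lay at 4.77 and 4.74, below 5. The HLA genes are near-identical in places, so their probe sets may share signal. Of 10 class II genes, none of which reached 6, HLA-DRB1 (5.55 and 5.55) and HLA-DMA (5.12 and 5.31) were detected, and HLA-DRA, CD74 and CIITA lay at 2.37, 3.198 and 2.58. The checkpoint ligands CD274 and PDCD1LG2 were at 2.38 and 2.38, and PVR, NECTIN2 and CD276 at 7.07, 6.76 and 7.05. The natural killer cell ligand MICA was at 6.41 and 6.43 and MICB at 2.37. Of 27 cytokines and chemokines 4 were detected, 10 with detection at 4 and 2 at 6. The 4 were MIF (11.48 and 11.48), TNFSF10 (6.21 and 6.41), CXCL16 (5.91 and 5.94) and CXCL2 (5.21 and 5.301). CXCL1 (4.31 and 4.24) and CXCL8 (4.25 and 3.998) lay below 5, and IL6, TNF and IL1B at 2.37, 2.38 and 2.397.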

How the data were processed

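RNA of 1 control pool, 1 µg per the labels, was hybridised to 2 human whole-genome expression arrays. The deposited values are log2 expression levels, and the authors normalized them with GCRMA, per the submitters' processing notes, with the version not given in the sources used here. GCRMA sets a floor, which limits the precision of low values, and whether all arrays of the series were normalized together is not stated. Of 54675 probe sets 41097 name 1 gene, 1801 several and 11777 none. Symbols were updated by Entrez identifier for 41043. Python 3.11.15 with pandas 2.3.3 and numpy 2.4.6 took, for each gene, the probe set with the highest mean of both arrays. A mean of 5 or more counted as detected. Named genes are the 40 of highest level, members of 67 gene lists, those nearest the limit and a few said to be chosen after their values were seen. Members and lists were chosen with earlier results of these data known. The calculation was tested on simulated data. Alternatives changed the detection level, the probe set, the averaging, the scaling and the arrays used. The other 4 arrays entered only the choice of probe set in 1 alternative.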

Additional observations from a re-analysis of the deposited data

Results flagged for a closer look

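Signal at or above 5 was also present in probe sets outside the gene ranking. Of 11721 probe sets with no gene named in the annotation, which leaves out 56 array controls, 1318 (11.2%) reached it, the highest at 13.92. Of 1801 probe sets shared by several genes 625 (34.7%) reached it. The highest of these, at 14.02, names the ribosomal protein gene RPL23A together with the small nucleolar RNA gene SNORD42A, which lies within it.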

How the results depend on the processing

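The choice of probe set moved the counts most. With the median of a gene's probe sets, 4479 genes in place of 7046 were detected, with 9 markers of other tissues in place of 17, 45 receptor genes in place of 89 and 73 oncogene and growth control genes in place of 134. Without _x, _s and _a probe sets the counts were 4660 genes, 5 markers of other tissues, 55 receptor, 120 metabolic, 67 chaperone and 12 immune genes. In that setting 2985 genes had no value. Of the genes detected before and still measured 1014 fell below 5, and the rest of the fall is from genes no longer measured. With detection at 6 the markers of other tissues numbered 11. The remaining counts over all genes and by theme stayed within 1.5 times under every alternative run. Counts of single lists moved by more than that in 39 of 67 lists without _x, _s and _a probe sets, 24 with the median, 8 with detection at 6, 6 with detection at 4 and 2 with shared probe sets counted. With 1 array left out 7067 and 7047 genes were detected, and with both arrays required at 5 or more 6954. No paired analysis was possible because only 1 group, measured on technical arrays of 1 pool, was described and no result comes from a test. The deposited levels hold no background measure per probe set, so a level below 5 is a weak or absent signal and not proof of absence.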
